A study of Mus musculus with 6 samples.

Results

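The 10 genes described here encode 3 receptors of the EGFR family (Egfr, Erbb2 and Erbb3), 5 of their ligands (Hbegf, Areg, Ereg, Btc and Tgfa), the feedback inhibitor Errfi1 and the receptor tyrosine kinase Met. They were chosen by name, and all 10 were among the 11866 genes of the deposited table and passed the filter on low values that left 10770 genes for testing. Poly(A)-captured RNA came from HCC3-4 cells, a line established from liver tumours of mice that carry a MYC transgene. In 3 libraries (KD 1 to 3) the cells stably carried a short hairpin RNA named shSf3b3, against the splicing factor gene Sf3b3, and in the other 3 (PLKO 1 to 3) the empty control pLKO.1-TRC. Both groups share the MYC-driven origin. The labels name 1 hairpin and do not say which promoter drove the MYC transgene or whether the libraries of a group were separate cultures, so p-values cover only how far these libraries vary, and that variation may be technical.

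Receptors of the EGFR family are kinases of the cell surface that pair up when a ligand binds and then signal through RAS and ERK and through PI3K and AKT. The ligands are made as membrane proteins and are released by metalloproteases, after which they act on the same or neighbouring cells. Erbb2 binds no known ligand and serves as a partner, Erbb3 signals mainly through such partners, and Errfi1 (MIG6) binds and inhibits the kinase domains of the family. Met is the receptor of hepatocyte growth factor. In the liver, EGFR and MET signalling is known for driving hepatocyte division after loss of tissue, and amphiregulin and TGF-alpha for their part in liver tumours.

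The ligands share an EGF-like segment with 6 cysteines, through which they bind the receptor. The coding bases of this segment are shown for Areg, Ereg, Btc and Tgfa, 4 of the 5 member ligands, to let their shared spacing be compared, with the cysteine codons in capitals (GENCODE M21, build GRCm38, coding strand, 5′ to 3′).
Ereg: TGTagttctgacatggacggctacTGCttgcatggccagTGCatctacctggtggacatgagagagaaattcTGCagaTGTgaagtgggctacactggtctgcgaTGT
Tgfa: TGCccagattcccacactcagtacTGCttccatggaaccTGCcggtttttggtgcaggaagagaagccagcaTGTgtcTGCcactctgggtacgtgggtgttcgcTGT
Areg: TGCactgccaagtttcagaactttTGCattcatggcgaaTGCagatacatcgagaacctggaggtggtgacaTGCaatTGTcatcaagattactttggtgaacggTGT
Btc: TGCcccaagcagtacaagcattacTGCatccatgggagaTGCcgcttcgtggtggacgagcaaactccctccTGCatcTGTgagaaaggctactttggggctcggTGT
Each segment has 108 bases with the cysteine codons at the same places, and in each gene it is split between exons 3 and 4. The spans on the genome, intron included, are chr5:91088496-91089111 for Ereg, chr6:86263200-86269960 for Tgfa, chr5:91143614-91144364 for Areg and chr5:91362421-91366197 for Btc. Between the segments of Ereg and Tgfa 49 of 108 bases (45.4%) were the same, the lowest of the 6 pairs, and between those of Btc and Tgfa 67 (62.0%), the highest.

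Between 15140441 and 17566101 reads per library fell on the listed genes. Levels are given as FPKM (fragments normalised to gene length and sequencing depth), the powers of 2 of the deposited log2 values. Sf3b3 fell from 26.9 ± 3.67 FPKM (SD, n = 3) in PLKO to 11.3 ± 2.33 in KD (limma adjusted p = 0.037), and without PLKO 1, PLKO 2, KD 1 or KD 2 it was not called (-1.15 to -1.38 on the log2 scale). Of 9 hepatocyte markers 3 were listed (Afp, Krt8 and Krt18), and Alb, Ttr, Apoa1, Apob, Serpina1a and Hnf4a were not among the listed genes. The libraries numbered 3 stood apart from the others in both groups. Correlations of the deviations from the group means were 0.18, 0.29 and 0.50 for the pairs numbered 1, 2 and 3, so equal numbers were taken to pair the libraries, although no label says so. The crossed pairs reached 0.28 (PLKO 1, KD 2) and 0.30 (PLKO 2, KD 1), so this measure could not assign libraries 1 and 2 to their partners. Results with the replicate number as a block rest on this assumed pairing.

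No member passed the test between KD and PLKO in the fit without a block. Across all tested genes 314 of 10770, or 2.92%, were called, 1.12% higher and 1.79% lower in KD (limma with Benjamini-Hochberg adjusted p under 0.05). Among the 10 members 0 were called, and voom on reads recovered from the table also called 0. An unadjusted p under 0.05 was reached by 2 of the 10 (limma, Ereg and Tgfa) and by 2977 of all 10770 tested genes (27.6%), so the members' share was no higher than that of all genes. With the replicate block Ereg and Tgfa were called higher in KD, 2 of 10 members beside 8.19% of all tested genes called higher and 19.3% called in either direction (11.1% lower). The median log2 fold change of the members was 0.36, with 8 above and 2 below 0, and that of all tested genes was -0.04.

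Among the receptors, Egfr was lower and Erbb2 level in KD, and neither passed the test. Egfr, the receptor of all 5 ligands, stood at 4.38, 3.77 and 9.88 FPKM in PLKO 1, 2 and 3 and at 3.00, 3.14 and 5.42 in KD 1, 2 and 3. KD 1 and KD 2 lay below every PLKO library, KD 3 lay above PLKO 1 and PLKO 2, and library 3 was the highest of each group. The log2 fold change was -0.56 (SE 0.40, limma adjusted p = 0.39, or 0.12 in the blocked fit). In each same-numbered pair Egfr was lower in KD, by 0.55, 0.26 and 0.87 on the log2 scale, as was the case for 29.9% of all tested genes. Without PLKO 3 the log2 fold change was -0.13. Egfr lies on chromosome 11 from 16752203 to 16918158 and overlaps Egfros, an antisense gene.

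Erbb2 varied least within each group, over a 1.15-fold range in PLKO and a 1.21-fold range in KD. It had 10.5, 9.09 and 9.70 FPKM in PLKO and 9.72, 11.2 and 9.24 in KD, in the order of the library numbers. The groups overlapped, and the ratio of KD to PLKO was 1.03 with a 95% interval from 0.752 to 1.40 (limma adjusted p = 0.92). Erbb2 overlaps Mien1 on the opposite strand (chromosome 11, 98412470 to 98437716), and the use of strand in counting is not given in the sources used here, so reads from an overlapping gene could not be told apart.

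Erbb3 differed more within the groups than between them. It had 2.40, 3.10 and 0.451 FPKM in PLKO (259, 310 and 41 reads) and 0.955, 1.27 and 3.28 in KD (87, 119 and 344 reads). PLKO 1 and PLKO 2 were above KD 1 and KD 2, while PLKO 3 was the lowest and KD 3 the highest of all 6 libraries. The differences of the pairs were -1.33, -1.29 and 2.86 on the log2 scale, and the log2 fold change was 0.08 (95% interval -1.61 to 1.78, limma adjusted p = 0.95). Without both libraries numbered 3, Erbb3 was called lower in KD (-1.31, limma adjusted p = 0.019), in a fit that called 16.0% of all tested genes lower and 27.9% in either direction. Without PLKO 3 alone or KD 3 alone it was -0.78 and -0.44 and was not called.

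**Figure D1:**
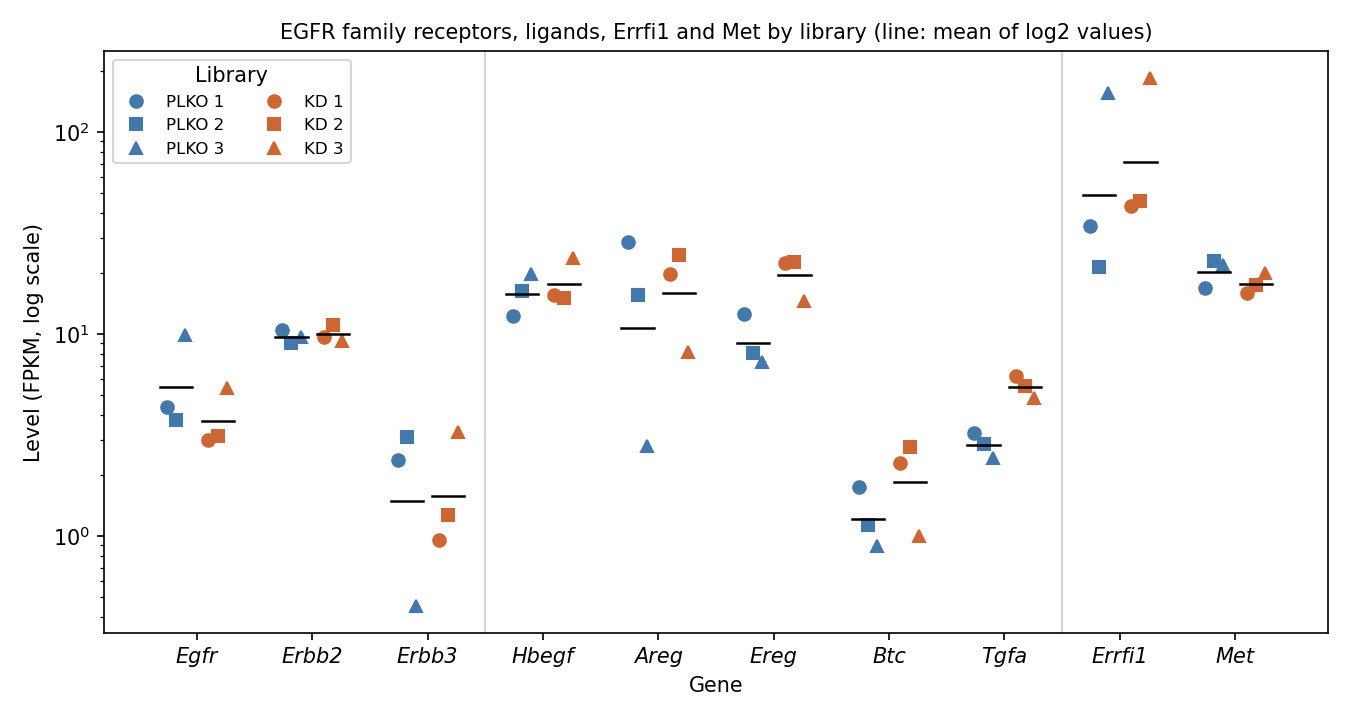
Level of each member in FPKM (vertical axis, log scale) by gene (horizontal axis), with blue points for PLKO, orange points for KD, a shape for each library number and a line at the mean of the log2 values of a group. Ereg and Tgfa are the 2 genes whose groups do not overlap, and the triangles (libraries numbered 3) stand apart for Errfi1, Areg, Erbb3 and Egfr.

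Ereg and Tgfa were the 2 ligands, and the 2 of 10 members, whose values did not overlap between the groups. In either direction this was the case for 32.1% of all tested genes. Ereg encodes epiregulin, a ligand that binds EGFR and ERBB4. It had 12.6, 8.03 and 7.28 FPKM in PLKO (943, 552 and 474 reads) and 22.6, 22.7 and 14.6 FPKM in KD (1443, 1485 and 1056 reads). The lowest KD library, KD 3, was above the highest PLKO library, PLKO 1. The ratio was 2.17 (95% interval 1.39 to 3.38), with a log2 fold change of 1.12 (SE 0.28) and a limma adjusted p of 0.062. The replicate block brought this p to 0.0076. The pairs differed by 0.84, 1.50 and 1.00 on the log2 scale. The gene lies on chromosome 5 from 91074622 to 91093646 and overlaps the antisense gene Gm19610.

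Tgfa encodes TGF-alpha, a ligand that binds EGFR. Its levels were 3.26, 2.87 and 2.44 FPKM in PLKO (381, 309 and 249 reads) and 6.21, 5.55 and 4.83 in KD (621, 569 and 548 reads). All KD libraries lay above all PLKO libraries, and the pairs differed by 0.93, 0.95 and 0.98 on the log2 scale, the narrowest range of the members. The ratio was 1.94 (95% interval 1.32 to 2.84), with a log2 fold change of 0.96 (SE 0.24) and a limma adjusted p of 0.062. The replicate block brought this p to 0.019. The gene lies on chromosome 6 from 86195223 to 86275719 and overlaps Gm43917 on the opposite strand. For Ereg and for Tgfa the exact two-sided permutation test gave p = 0.1, the lowest value possible with 3 libraries a group. Groups that do not overlap, with KD higher, were found for 13.4% of all tested genes.

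Both genes were also called without KD 3, at 1.33 and 1.05 on the log2 scale (limma adjusted p = 0.023 and 0.035), and without both libraries numbered 3 (1.17 and 0.94, adjusted p = 0.013 and 0.020). These fits called 6.81% and 11.9% of all tested genes higher. Leaving out any other single library gave log2 fold changes from 0.96 to 1.36 for Ereg and from 0.85 to 1.06 for Tgfa, with adjusted p from 0.076 to 0.24. Levels of leukocyte markers moved in the same direction. Of 8 such markers 2 were listed, Cd68 and Cd79a, and their summed level was 10.1 to 42.2 FPKM in PLKO and 46.9 to 98.9 FPKM in KD, mostly Cd68. Ptprc, Csf1r, Adgre1, Lyz2, Cd3e and Cd79b were not listed. Of the hepatocyte markers, Krt18 (5.27 to 6.6 FPKM in PLKO, 8.41 to 9.60 in KD) and Afp (0.302 to 0.467 and 0.814 to 1.975) were higher too. Like Cd68 and Cd79a, each was higher in every KD library than in any PLKO library, beside 13.4% of all tested genes. Afp was under the filter of the test and so was not among those genes. Krt8 overlapped between the groups. So did the summed bile duct markers Krt19 and Sox9 (54.1 to 80.7 FPKM in PLKO, 63.2 to 70.6 in KD). Fibroblast and mesenchymal markers (5 of 8 listed, mostly Vim) summed to 578 to 741 FPKM in PLKO and 294 to 645 in KD, and Vim itself overlapped between the groups. The other 4 were each lower in every KD library than in any PLKO library, beside 18.8% of all tested genes. Col3a1 had 37.5 to 63.3 FPKM in PLKO and 14.4 to 24.2 in KD, and Pdgfrb had 54.3 to 79.3 and 24.6 to 41.2. Col1a1 and Col1a2 were low in both groups (at most 1.58 and 0.655 FPKM), and Col1a2 was under the filter of the test. The part of the leukocyte, hepatocyte, bile duct and mesenchymal markers in the result was not tested.

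Areg encodes amphiregulin, an EGFR ligand that hepatocytes make after injury. It had 28.7, 15.6 and 2.80 FPKM in PLKO (630, 315 and 52 reads) and 20.0, 24.6 and 8.21 FPKM in KD (373, 472 and 173 reads). Library 3 was the lowest of each group, and PLKO spanned a 10.2-fold range, the widest of any member. The log2 fold change was 0.56 (95% interval -1.17 to 2.30, limma adjusted p = 0.66), the pairs differed by -0.53, 0.66 and 1.55, and without PLKO 3 the log2 fold change was -0.41. Without PLKO 1 it was 1.27.

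Hbegf encodes HB-EGF, which binds EGFR and ERBB4 and whose precursor is the diphtheria toxin receptor in other mammals. Its levels were 12.3, 16.3 and 19.8 FPKM in PLKO and 15.6, 15.1 and 23.8 in KD. The groups overlapped, with a ratio of 1.12 (95% interval 0.741 to 1.70, limma adjusted p = 0.71). Btc encodes betacellulin and had the lowest mean level of the ligands. It stood at 1.76, 1.14 and 0.893 FPKM in PLKO (142, 84 and 62 reads) and at 2.32, 2.76 and 0.997 in KD (160, 196 and 77 reads). It was higher in KD in each pair, by 0.40, 1.28 and 0.16 on the log2 scale, but KD 3 lay below PLKO 1 and PLKO 2. The log2 fold change of Btc was 0.61 (SE 0.47, limma adjusted p = 0.42).

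**Figure D2:**
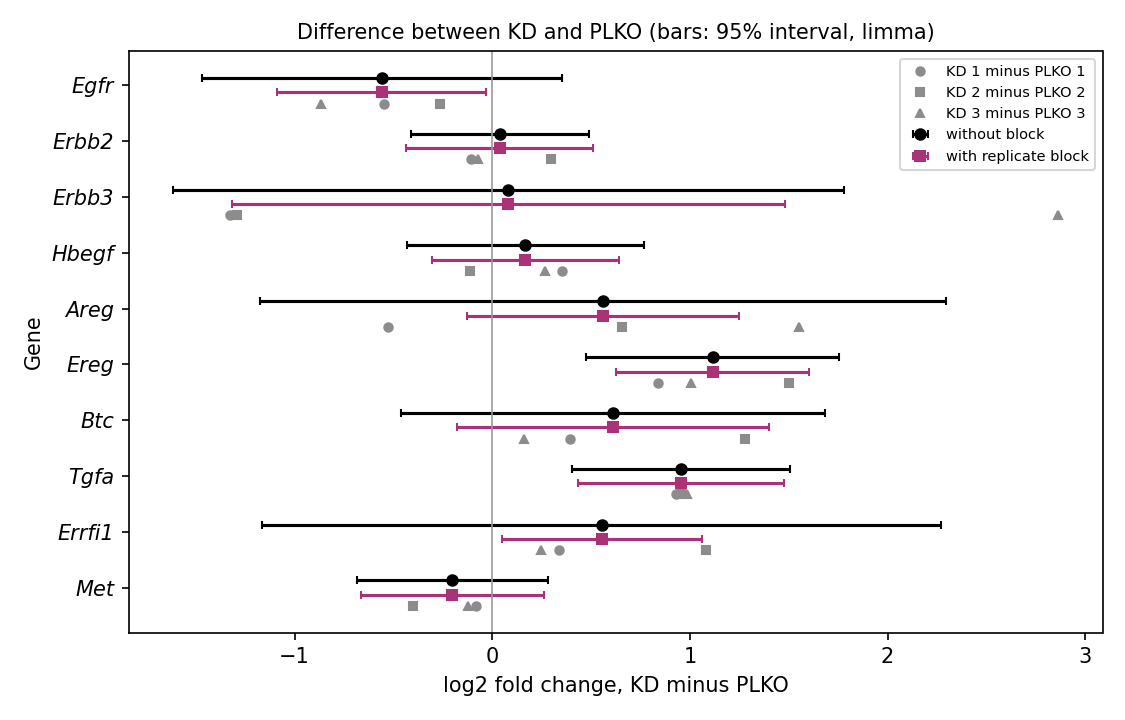
Log2 fold change of each member, KD minus PLKO (horizontal axis), from limma without a block (black circles) and with the replicate block (purple squares), with 95% intervals as bars and the differences of same-numbered libraries as grey points. The intervals of Ereg and Tgfa lie above 0 in both fits. The grey points of Erbb2, Erbb3, Hbegf and Areg lie on both sides of 0.

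The summed level of the 5 ligands was 58.7, 44.0 and 33.2 FPKM in PLKO and 66.8, 70.8 and 52.4 FPKM in KD. KD 3 was below PLKO 1, so the sums overlapped. Ereg made up 21.6%, 18.3% and 21.9% of the sum in PLKO and 33.9%, 32.1% and 27.8% in KD. Its share was thus higher in every KD library than in any PLKO library. Tgfa made up 5.56%, 6.52% and 7.35% of the sum in PLKO and 9.30%, 7.84% and 9.21% in KD. The shares of Areg and Hbegf depended more on the library than on the group. Areg made up 49.0% of the sum in PLKO 1 and 8.44% in PLKO 3, and Hbegf 20.9% and 59.6%. The sum of the 3 receptors was 16.0 to 20.0 FPKM in PLKO and 13.7 to 17.9 FPKM in KD, and Erbb2 gave the largest part in every library but PLKO 3, where Egfr made up 49.3% and Erbb2 48.4%.

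**Figure D3:**
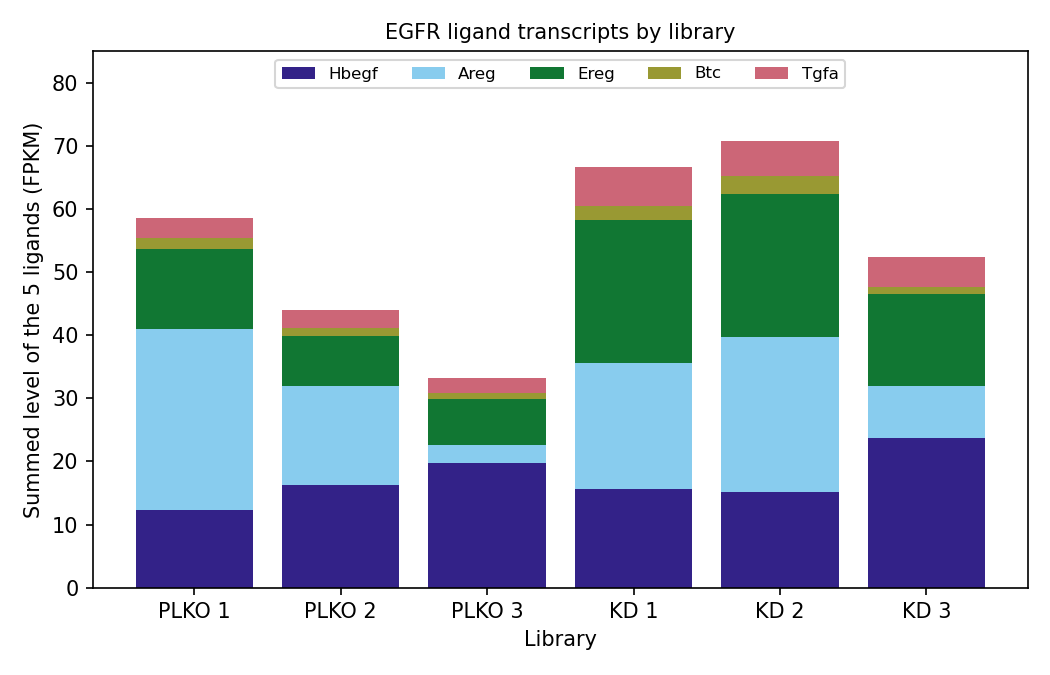
Summed level of the 5 ligand transcripts in FPKM (vertical axis) in each library (horizontal axis), split by ligand. The green part, Ereg, is larger in each KD library (14.6 to 22.7 FPKM) than in any PLKO library (7.28 to 12.6 FPKM).

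Errfi1 is switched on by EGFR and ERK signalling and limits the receptors in return. Errfi1 overlaps the antisense gene 1700045H11Rik and had the highest mean level of the members in both groups. It stood at 34.2, 21.5 and 157 FPKM in PLKO (2215, 1285 and 8883 reads) and at 43.2, 45.5 and 186 in KD (2389, 2578 and 11675 reads). Both libraries numbered 3 were far above the other 4, and within each pair KD was higher, by 0.34, 1.08 and 0.25 on the log2 scale. The log2 fold change was 0.55 (95% interval -1.16 to 2.27) and did not pass (limma adjusted p = 0.66, or 0.11 in the blocked fit). Its direction turned without PLKO 2 (-0.03) and without KD 3 (-0.13), and without PLKO 3 it was 1.40. Ereg, Btc, Tgfa and Errfi1 were higher in KD in every pair, 4 of 10 members, beside 25.4% of all tested genes.

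Met had 16.9, 23.1 and 21.9 FPKM in PLKO and 16.0, 17.4 and 20.2 in KD. The groups overlapped, since KD 2 and KD 3 lay above PLKO 1. The ratio was 0.870 (95% interval 0.623 to 1.21, limma adjusted p = 0.56). The pairs differed by -0.08, -0.40 and -0.12 on the log2 scale. Egfr and Met were lower in KD in every same-numbered pair, 2 of 10 members, beside 29.9% of all tested genes. For Met this rests on the assumed pairing, since KD 2 lay above PLKO 1. Hgf, the ligand of Met, was close to the filter at 1.41 FPKM in PLKO and 1.12 FPKM in KD, with a log2 fold change of -0.38 (limma adjusted p = 0.61).

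For Egfr, Erbb3, Hbegf, Areg, Btc and Errfi1, library 3 stood farther from libraries 1 and 2 in each group than KD stood from PLKO. A difference of 1 library from the mean of 2 varies more than a difference between means of 3. The share of all tested genes with this pattern was not counted. Errfi1 was higher in library 3 than in the mean of libraries 1 and 2 by 2.53 in PLKO and 2.07 in KD on the log2 scale, and Egfr by 1.28 and 0.82. Areg was lower, by -2.92 and -1.43, and Btc by -0.67 and -1.34. Erbb3 was the 1 member with large shifts of opposite sign, -2.60 in PLKO and 1.57 in KD. Ereg (-0.47 and -0.64) and Tgfa (-0.32 and -0.28) shifted less. Over all tested genes the median size of this shift was 0.34 in PLKO and 0.41 in KD, and 1.81% and 0.994% of the genes shifted by more than 2. What sets the libraries numbered 3 apart was not tested.

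**Figure D4:**
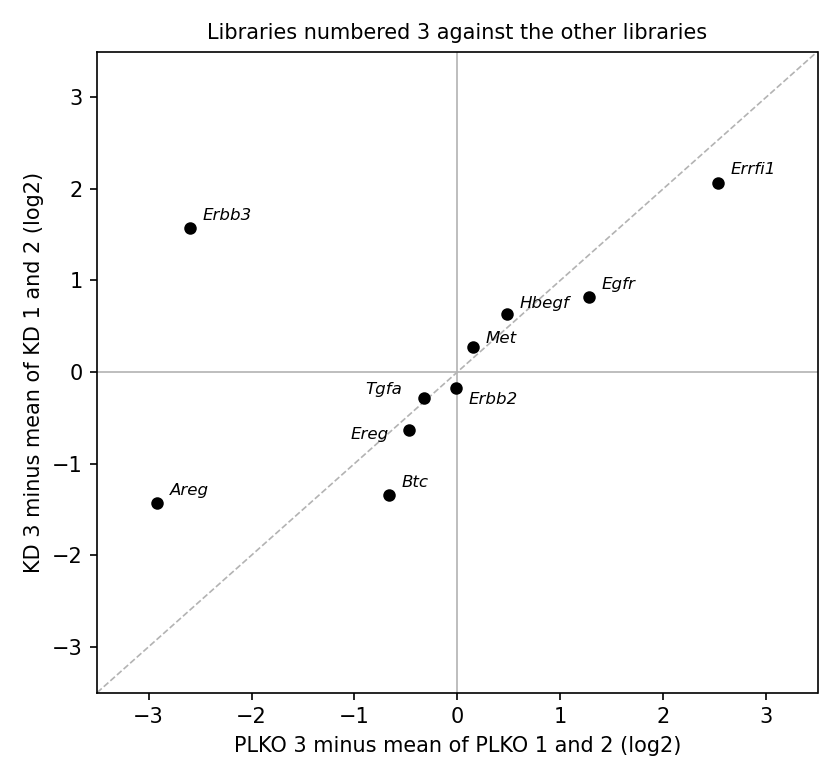
Difference between library 3 and the mean of libraries 1 and 2 in PLKO (horizontal axis) and in KD (vertical axis), on the log2 scale, with a point for each member and a dashed line where both are equal. Errfi1 and Egfr lie to the upper right, Areg and Btc to the lower left, and Erbb3 lies to the upper left, with shifts of opposite sign (-2.60 and 1.57).

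In the order of mean log2 levels, Errfi1 led in both groups and Btc and Erbb3 came last. In PLKO the order was Errfi1, Met, Hbegf, Areg, Erbb2, Ereg, Egfr, Tgfa, Erbb3 and Btc, and only Egfr and Tgfa were neighbours whose values did not overlap. In KD it was Errfi1, Ereg, Hbegf, Met, Areg, Erbb2, Tgfa, Egfr, Btc and Erbb3. There the values did not overlap between Errfi1 and Ereg, Erbb2 and Tgfa, and Egfr and Btc. Ereg thus moved from the sixth place to the second.

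Over the 6 libraries Ereg and Tgfa were the most alike of all pairs of members (Pearson's r of the log2 values 0.96), and Egfr and Areg the most opposed (-0.91). The points share the groups and the libraries numbered 3, so these values are descriptions. Among all tested genes, those most like Ereg were Commd4, Chrnb1 and Dpysl2 (r from 0.996 to 0.998), those most like Egfr were Sfpq, Igfbp5 and Magi3 (0.989 to 0.996), and those most like Met were Flna, Thoc6 and Pttg1ip (0.987 to 0.997).

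Areg, Ereg and Btc are neighbours on chromosome 5. Ereg ends 46.0 kb before Areg begins, and Areg ends 209 kb before Btc, which lies on the opposite strand. Of these neighbours Ereg had groups that did not overlap, and Areg and Btc had groups that did. The 250 bases before the start are shown for Areg and for Tgfa, as ligands that differ in how far their levels varied between libraries (RefSeq table, build GRCm38.p6, plus strand, 5′ to 3′). Capitals mark matches to the motifs named below.
Areg: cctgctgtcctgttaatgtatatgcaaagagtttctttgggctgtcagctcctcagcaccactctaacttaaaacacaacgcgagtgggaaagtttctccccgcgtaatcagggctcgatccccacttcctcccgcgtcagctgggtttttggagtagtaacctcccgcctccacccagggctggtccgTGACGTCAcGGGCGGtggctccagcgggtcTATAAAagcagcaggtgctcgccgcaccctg
Tgfa: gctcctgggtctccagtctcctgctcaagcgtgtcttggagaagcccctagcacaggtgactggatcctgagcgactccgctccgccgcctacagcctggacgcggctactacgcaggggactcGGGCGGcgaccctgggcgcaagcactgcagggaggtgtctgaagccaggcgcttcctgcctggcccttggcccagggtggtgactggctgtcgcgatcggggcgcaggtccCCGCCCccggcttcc
The windows are chr5:91139349-91139598 and chr6:86194972-86195221. Each was searched on both strands for the cAMP response element TGACGTCA, the AP-1 site TGANTCA, the E-box CACGTG, the TATA box TATAAA and the GC box GGGCGG. The Areg window held a cAMP response element that begins 61 bases before the start, a TATA box that begins 31 bases before it and a GC box. The Tgfa window held 2 GC boxes and none of the other motifs. A window of Errfi1 also held a cAMP response element and a TATA box, 51 and 28 bases before the start. Another window of Errfi1 held none of the motifs. The windows of Egfr, Erbb2, Btc and Met held neither a cAMP response element nor a TATA box. Among the members with a window, only Met had an AP-1 site or an E-box. Of 32851 such windows 1.55% held the cAMP response element, 12.4% the TATA box, 32.7% the GC box, 6.75% the AP-1 site and 6.02% the E-box. Of 9 members looked up, 7 were in the table, and Ereg and Erbb3 were not. A match is a description of these letters and not a site.

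The genes around the receptors were followed in 6 lists with 82 tested members. Of these 2 were called higher and 0 lower without a block, and 13 higher and 4 lower with it, beside 2.92% and 19.3% of all tested genes called in either direction. Their median log2 fold change was 0.14. Among 8 tested genes of ligand shedding and maturation, Furin, the protease that activates many precursors, ADAM proteases among them, rose from 14.5 ± 1.12 FPKM in PLKO to 29.6 ± 4.66 FPKM in KD (SD, n = 3; log2 fold change 1.02, SE 0.21, limma adjusted p = 0.044). Its libraries stood at 13.6, 15.8 and 14.2 FPKM in PLKO and at 32.4, 32.2 and 24.2 in KD. Plau, which encodes urokinase, and Rhbdf1 (iRhom1), a partner of ADAM17, had log2 fold changes of 0.89 and 0.83, and Adam10, the sheddase of betacellulin, of -0.77. Their limma adjusted p were 0.058, 0.081 and 0.076, and 0.017, 0.035 and 0.025 with the block. Adam17, the main sheddase of TGF-alpha, epiregulin, amphiregulin and HB-EGF, had -0.53 (limma adjusted p = 0.17, or 0.099 in the blocked fit).

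Output genes of ERK signalling had a median log2 fold change of 0.68 over 8 tested members, with 7 above 0. Without a block 5 of them reached an unadjusted p under 0.05 (limma), beside 27.6% of all tested genes. Dusp4, a phosphatase that inactivates ERK in the nucleus, had 18.6, 17.2 and 18.7 FPKM in PLKO and 46.0, 35.5 and 39.6 FPKM in KD, a rise with a log2 fold change of 1.14 (SE 0.19) that passed the test (limma adjusted p = 0.033). Epha2, Dusp6 and Etv4 had log2 fold changes of 0.61, 1.10 and 1.21 (adjusted p between 0.092 and 0.14). In the blocked fit, which called 8.19% of all tested genes higher, Dusp4, Dusp6, Etv4 and Spry2 were called higher. Both calls, Furin and Dusp4, were lost when PLKO 1, PLKO 2, KD 1 or KD 2 was left out, as were those of all other genes (limma, 0 of 10770 called, 1793 to 2315 at an unadjusted p under 0.05). In those 4 fits their log2 fold changes were 0.94 to 1.23 and their limma adjusted p 0.12 to 0.20.

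Downstream kinases had a median of -0.16 over 19 tested members. Without a block 0 were called (limma, 5 at an unadjusted p under 0.05, beside 27.6% of all tested genes). The block, with which 11.1% of all tested genes were called lower, gave 2 kinases lower. One of these was Map2k2 (MEK2), a kinase that activates ERK, at a log2 fold change of -0.75 (limma adjusted p = 0.036 in the blocked fit). Rps6ka3, a kinase that ERK activates, had -0.62 without the block (limma adjusted p = 0.13). Adaptors and RAS activators had a median of 0.34 over 17 members and 0 calls without a block (limma, 4 at an unadjusted p under 0.05, beside the same 27.6%). Sos2, Nras and Frs2 were called higher with the block (log2 fold changes 0.71, 0.65 and 0.77, limma adjusted p from 0.044 to 0.049), beside 8.19% of all tested genes. Crkl at 0.59 was not called.

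Genes of receptor attenuation and trafficking had a median of 0.01 over 26 members. Without a block 0 were called (limma, 4 at an unadjusted p under 0.05, below the 27.6% of all tested genes). The block called 8.19% of all tested genes higher. Among those were Cbll1, a CBL-like ubiquitin ligase, Stam, an endosomal sorting adaptor, and Lrig3. Their log2 fold changes were 1.10, 0.83 and 1.10. Of 10 further genes of the EGFR and MET families 6 were listed and 4 tested. On the log2 scale Mst1, Nrg1, Hgf and Nrg2 differed by -1.23, -0.34, -0.38 and -0.27. None passed in either fit, and without the block the limma adjusted p lay between 0.21 and 0.62 (0 at an unadjusted p under 0.05).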

How the data were processed

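RNA-seq of 3 KD and 3 PLKO libraries was analysed from 1 table in which the authors deposited log2 FPKM per gene and library, as read from the values themselves. The submitters' processing notes name the build GRCm38 and the tool FastQC 0.11.7. Aligner, counter, strandedness and gene filter were not given in the sources used here. Low values hold a prior of 2 reads, which shrinks fold changes of genes with few reads. Reads were recovered from the steps of the values (whole within 0.01 reads in 100% of genes, with the annotated length for 10963 genes and a scanned length for 903). Hbegf is among the latter, since its annotated length of 4834 bases did not give whole reads and 2373 bases, the shortest that did, was used. FPKM values do not depend on this.

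The test was limma 3.58.1 (R 4.3.3) with its intensity trend, applied to the deposited values of those genes whose mean reached 1 FPKM. KD was compared with PLKO, and Benjamini-Hochberg adjusted p under 0.05 over all tested genes was called. Alternatives were the replicate block, log2(FPKM + 1), no filter, a filter of 1 FPKM in every library of a group, quantile normalization, array weights, voom on recovered reads with TMM scaling, and leaving out libraries. Equal numbers were taken to pair libraries because the correlations of their deviations from the group means all exceeded 0.1, a finding from the data. The crossed pairs of libraries 1 and 2 exceeded 0.1 as well, so for these libraries the criterion did not single out equal numbers. Genes named are the members, up to 4 tested genes with the lowest adjusted p in each pathway list and every gene called there. Adam17, Spry2 and Epgn were named after their values were seen. The members and lists were chosen with earlier results of these data known. Some genes of the fixed lists are counted but not reported by name here.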

Additional observations from a re-analysis of the deposited data

How the results depend on the processing

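The count of all tested genes called was 314 and stayed between 306 and 383 with log2(FPKM + 1), either filter, quantile normalization and voom. With the replicate block it was 2080, without both libraries numbered 3 it was 3009, and leaving out 1 library gave 0 to 1744. With array weights it was 6030, in a fit whose weights did not converge and gave KD 2 a weight of 44.7 beside 0.214 to 1.94 for the others. Members called were 0 of 10 and became 2 with the replicate block (Ereg and Tgfa) and 3 without both libraries numbered 3 (Erbb3 too). They were 4 with array weights (Egfr and Btc with Ereg and Tgfa) and 0 to 2 when 1 library was left out. Calls in the pathway lists were 2 of 82 tested genes and became 17 with the block, 21 without both libraries numbered 3, 49 with array weights and 0 to 16 when 1 library was left out. Of all 10770 tested genes 19.3% were called with the block, 27.9% without both libraries numbered 3 and 6030 with array weights. Apart from the calls named here and in the report, the block called no further member. The log2 fold change of Erbb3 turned to -0.03 with log2(FPKM + 1), -0.68 with array weights and -1.31 without both libraries numbered 3. Leaving out 1 library gave -0.78 to 0.61 for Erbb3, -0.41 to 1.27 for Areg, -0.13 to 1.40 for Errfi1, -0.042 to 0.33 for Hbegf and -0.040 to 0.10 for Erbb2. The cause of these changes was not tested. Erbb3 and Btc failed the filter of 1 FPKM in every library of a group and have no value there. Ereg, Tgfa, Egfr, Btc and Met kept their direction in every alternative that gave a value. Low read counts limit Erbb3, Areg and Btc, with 41, 52 and 62 reads in PLKO 3.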

Other observations

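Epgn, which encodes the EGFR ligand epigen and lies 39.4 kb before Ereg on chromosome 5, was not a member and was under the filter on low values. It was named after its values were seen. It had 0.0973, 0.298 and 0.137 FPKM in PLKO (1, 7 and 2 reads) and 1.46, 1.53 and 0.508 FPKM in KD (39, 42 and 14 reads), so the groups did not overlap. With KD higher, groups did not overlap for 13.4% of all tested genes. Over the groups, the 10 reads of Epgn in PLKO and 95 in KD gave a ratio of 9.85 per scaled library (exact 95% binomial interval 5.13 to 21.2, which covers counting error only). In the fit of all 11866 listed genes its log2 fold change was 2.72 (SE 0.63) with a limma adjusted p of 0.057. Egf had a log2 fold change of -0.72 in the same fit (limma adjusted p = 0.47).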
